A study of Homo sapiens with 2 samples.

Results

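The subject is 41 human genes of DNA repair and the DNA damage checkpoint, taken by name from 19096 gene symbols in the deposited expression tables. The rule uses no measured value, but the names were put together with earlier results of these data known. They fall into 6 roles: 10 genes of homologous recombination, 8 of the Fanconi anaemia pathway, 3 of mismatch repair, 7 of base excision and single-strand break repair, 5 of end joining, and 8 of damage sensing and checkpoint signalling. Each gene was followed through the transcript row with the highest mean of both libraries. The cells were P493-6, a human B cell line that carries a c-Myc transgene repressed by tetracycline. The low c-Myc library came from cells in which the transgene had been released for 0 h, and the high c-Myc library from cells released for 24 h. Both populations carried the same transgene and grew in the same medium apart from tetracycline, which repressed the transgene until release. The low library is thus a repressed state of the engineered line and not a cell without the transgene. Poly(A) RNA was sequenced after synthetic RNAs of known sequence had been added in proportion to cell number. Each group had 1 library, so no difference has a replicate check, and every value below compares these libraries.

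Cells meet DNA damage with a set of partly separate pathways. Base excision repair removes small base lesions such as uracil, through a glycosylase that cuts out the base and an endonuclease that opens the strand. Mismatch repair corrects copying errors, and the Fanconi anaemia pathway unhooks crosslinks between strands. Double-strand breaks are rejoined directly by end joining or copied from the sister chromatid by homologous recombination. The kinases ATM and ATR sense breaks and stalled forks and pass the signal to CHEK2 and CHEK1. B cells use several of these enzymes in making antibodies, since UNG acts in class switching and LIG4, XRCC4 and PRKDC join the ends in V(D)J recombination.

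The values were RPKM, read counts divided by transcript length and by the size of the library. The steps between low values put the depth at about 103000000 reads in the low library and 105000000 in the high library. With these depths 49.4% and 46.9% of the low-valued transcripts lay within 0.05 of a whole read, a window that covers 10% of the range between whole numbers. An RPKM of 1 on a 2 kb transcript then stands for about 206 and 211 reads. MYC itself was at RPKM 836 in the low library and 2358 in the high library. Of 7 B cell markers, 6 were at RPKM 1 or more in both libraries, and CR2 was below. The summed levels of the markers were not equal in the libraries: B cell markers went from 15026 to 6417 RPKM and myeloid markers from 150.6 to 35.6. Of 5 myeloid markers 3 reached RPKM 1 in both libraries, and CD14 and CSF1R did not. Of 6 T cell markers 3 reached it in the low library and 1 in the high library, with sums of 13.3 and 2.17 and CD3D and CD8A at 0 in both, and NK cell markers summed to 10.6 and 5.20. No erythroid or platelet marker reached RPKM 1, and fibroblast and epithelial markers summed to 19.2 and 13.0. The part of these shifts in the results below was not tested. The sums are shares of each library of the same cell line and not levels per cell. In bulk RNA, fewer cells with a marker and a smaller share of it in each cell cannot be told apart.

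Of the 41 genes, 39 reached a mean RPKM of 1, and BRCA2 and FANCB did not. Ratios were taken as log2 of (RPKM + 0.5), high over low, which understates the deposited change of low genes, and a gene was called higher or lower from 2-fold on that scale. The call was made for 13 genes as higher (33.3%) and 3 as lower (7.69%), with 23 between. Among all 10272 expressed genes, 24.9% were called higher and 9.74% lower. The median ratio of the 39 genes was 0.56 (interquartile range 0.25 to 1.33), against 0.22 (−0.44 to 0.997) for all expressed genes. The synthetic RNAs held 17.5% of the summed RPKM in the low library and 2.75% in the high library. Where the deposited denominator counts them, that difference raises the ratio of every human gene. With equal sums of RPKM without them, the medians were 0.23 for the 39 genes and −0.13 for all expressed genes. As deposited, the share of higher genes was thus above that of the transcriptome and the share of lower genes near it, with no test of either. After centring on the median gene, equal sums and quantile normalization, 12, 9 and 10 of the genes were higher, beside 19.8%, 16.9% and 17.3% of all genes. The same 3 scalings left 3 lower, beside 14.8%, 17.7% and 17.2% of all genes. The last gene inside the higher threshold was FANCI at 1.03, and the first outside it was LIG3 at 0.95. At the other end the last gene inside was LIG4 at −1.26, and the next was TP53BP1 at −0.24, so no gene lay near the lower threshold. The plot of levels by gene shows where each of these genes lay in both libraries.

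**Figure D1:**
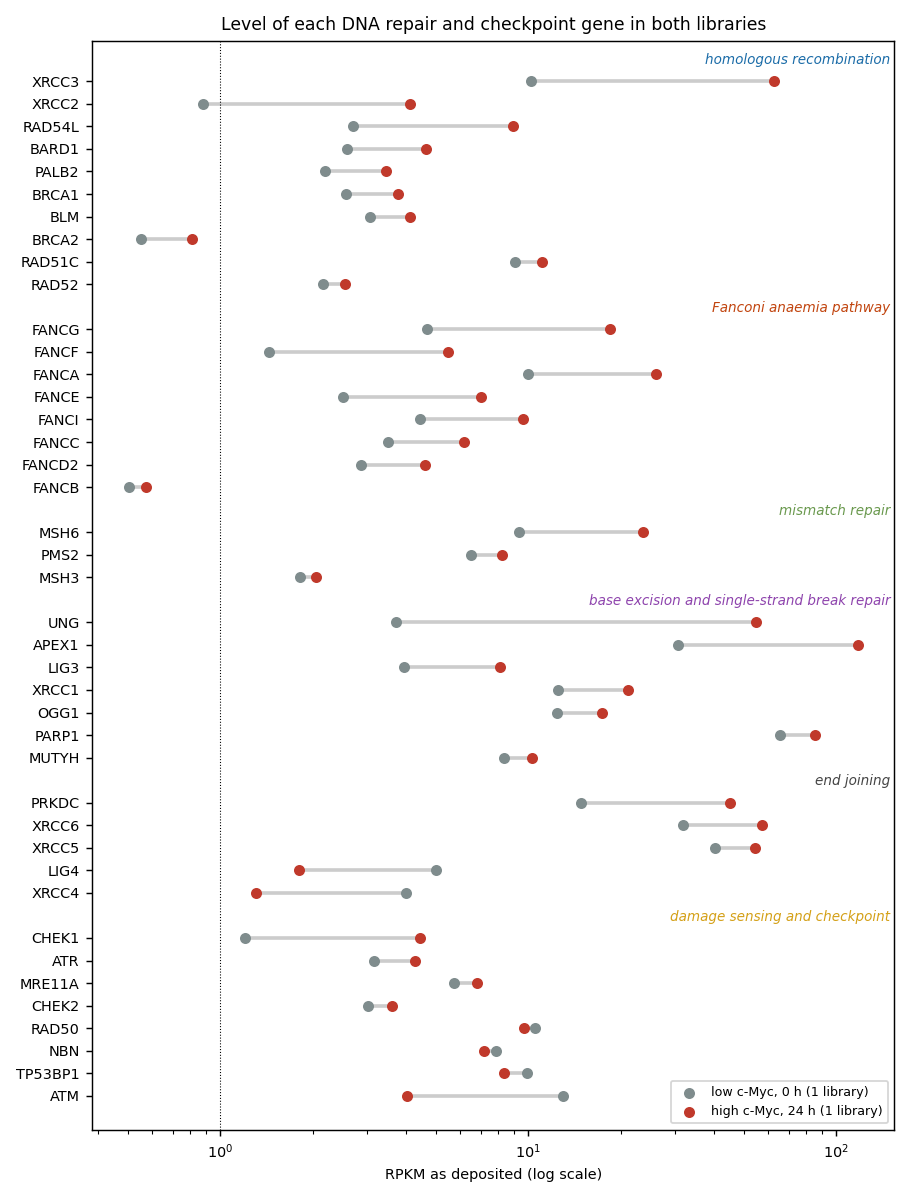
RPKM of each of the 41 genes in the low c-Myc library (grey) and the high c-Myc library (red) on a log axis, grouped by role, with a dotted line at RPKM 1; each point is 1 library and has no replicate error. The longest rightward lines are those of UNG (3.72 to 55.0) and XRCC3 (10.2 to 62.9), and the lines that run leftward by the greatest length are those of LIG4, XRCC4 and ATM.

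Base excision repair held the gene with the largest ratio of the set. UNG, the glycosylase that removes uracil from DNA, was at RPKM 3.72 in the low library and 55.0 in the high library. That is a 14.8-fold difference, and the log2 ratio without a pseudocount was 3.89 with a 95% counting interval of 3.78 to 3.99, an exact binomial interval on approximate reads that covers counting error only. UNG went from rank 7367 to rank 1254 of the 10272 expressed genes. APEX1, the endonuclease that cuts the strand where a base has been removed, was at 30.5 and 118 RPKM, a log2 ratio of 1.93. It was the most abundant of the 41 genes in the high library. The first and second enzymes of uracil repair were thus both higher, and their order did not change: APEX1 stood 8.20 times above UNG in the low library and 2.14 times above it in the high library.

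The other glycosylases of the set did not share this difference. Outside the set the glycosylase NTHL1, described below, did, with a deposited log2 ratio of 3.81. OGG1, which removes 8-oxoguanine, was at RPKM 12.3 and 17.3 (log2 ratio 0.47), and MUTYH, which removes adenine paired with it, at 8.34 and 10.3 (0.29). UNG lay below both in the low library, at 0.302 of the OGG1 level, and above both in the high library, at 3.18 times the OGG1 level. With the ratio corrected for the GC content of the transcripts, OGG1 and MUTYH came to −0.05 and −0.23, so their direction depends on that correction. PARP1, which binds strand breaks, was the most abundant of the set in the low library at 65.7 RPKM, and at 85.4 in the high library it had the ratio 0.37. Its scaffold partner XRCC1 had 12.5 and 21.0 RPKM (0.72), and the ligase LIG3 had 3.96 and 8.09 (0.95). Of the 7 genes of this role, 2 were called higher (28.6%) and none lower, beside 24.9% and 9.74% of all expressed genes. The median ratio of the role was 0.72.

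The start regions of UNG and APEX1 are shown because these genes carry the largest ratios of the role and their promoters held E-boxes, which c-Myc is known to bind. UNG also held a word that E2F factors are known to bind, and APEX1 did not. LIG3, of the same role and not called higher (0.95), held an E-box too, at −72. The choice used both the ratios and the letters, and a link between them was not tested. The sequences are RefSeq promoters on GRCh38.p14, printed 5′ to 3′ on the strand of the gene, with positions counted back from the annotated start. Capitals mark the E-box CACGTG or 1 of 4 E2F words (TTTCCCGC, TTTGGCGC, TTTCGCGC, TTTGCCGC), each searched on both strands. UNG has 2 annotated starts. The upstream window, chr12:109097347-109097596 on the plus strand, lies before the start of the nuclear form and held none of these words. The downstream window, chr12:109097922-109098147 on the plus strand, held E-boxes at −232 and −47 and an E2F word at −63. The APEX1 window, chr14:20455106-20455220 on the plus strand, held 3 E-boxes at −105, −44 and −23.
UNG upstream start: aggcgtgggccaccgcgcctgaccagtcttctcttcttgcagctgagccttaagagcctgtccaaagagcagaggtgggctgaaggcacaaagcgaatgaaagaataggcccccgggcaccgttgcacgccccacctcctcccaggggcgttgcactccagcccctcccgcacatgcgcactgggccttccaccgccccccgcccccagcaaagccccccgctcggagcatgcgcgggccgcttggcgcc
UNG downstream start: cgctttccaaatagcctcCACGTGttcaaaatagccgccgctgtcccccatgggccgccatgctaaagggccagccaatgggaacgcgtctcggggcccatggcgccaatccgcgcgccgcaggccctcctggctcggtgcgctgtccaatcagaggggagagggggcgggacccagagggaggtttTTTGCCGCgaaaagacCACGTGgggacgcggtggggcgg
APEX1: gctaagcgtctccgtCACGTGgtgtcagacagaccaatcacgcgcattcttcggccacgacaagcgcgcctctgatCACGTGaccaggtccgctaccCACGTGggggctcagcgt
These matches describe letters in the sequence and not bound sites. The expression tables cannot say which UNG start was used: NM_080911, the nuclear form, and NM_003362, the mitochondrial form, had ratios of 3.72 and 3.69, and the rows share most of their sequence.

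The Fanconi anaemia pathway had a median ratio of 1.32. Of its 7 expressed genes 5 were called higher (71.4%) and none lower, beside 24.9% and 9.74% of all expressed genes. With centring on the median gene, equal sums and quantile normalization, 4, 2 and 3 were higher (57.1%, 28.6% and 42.9%). The shares of all expressed genes were then 19.8%, 16.9% and 17.3%. The core complex, which marks the crosslink by attaching ubiquitin, supplied most of the 5 genes called higher as deposited. FANCG was at RPKM 4.70 and 18.4 (log2 ratio 1.86), and FANCF, the adaptor of the complex, at 1.44 and 5.50 (1.63). FANCA, the partner of FANCG, was at 9.95 and 26.1 (1.35), and FANCE at 2.50 and 7.01 (1.32). FANCC, which sits between FANCE and FANCF in the complex, had 3.50 and 6.17 RPKM and a ratio of 0.74, under the threshold. FANCB was below the expression minimum at 0.504 and 0.572 RPKM. The core subunits thus differed in ratio among themselves. The substrates of the complex were FANCI, at 4.45 and 9.64 RPKM (1.03), and FANCD2, at 2.85 and 4.61 RPKM (0.61), the second of which has near-identical copies in the genome and is uncertain where the counting split reads. FANCI stood 1.56 times above FANCD2 in the low library and 2.09 times in the high library.

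FANCA and FANCC are printed together because both hold E2F words although only FANCA passed the 2-fold threshold. The FANCA window is chr16:89816648-89816897 on the minus strand, with an E2F word on the reverse strand at −172. FANCC has 2 windows, and the one with E2F words is chr9:95317710-95317959 on the minus strand, with E2F words at −172 and −46.
FANCA: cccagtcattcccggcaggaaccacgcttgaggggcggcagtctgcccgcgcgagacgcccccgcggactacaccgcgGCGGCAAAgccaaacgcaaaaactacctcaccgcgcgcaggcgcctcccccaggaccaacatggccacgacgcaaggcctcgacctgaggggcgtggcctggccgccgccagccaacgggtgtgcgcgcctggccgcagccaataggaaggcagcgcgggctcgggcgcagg
FANCC: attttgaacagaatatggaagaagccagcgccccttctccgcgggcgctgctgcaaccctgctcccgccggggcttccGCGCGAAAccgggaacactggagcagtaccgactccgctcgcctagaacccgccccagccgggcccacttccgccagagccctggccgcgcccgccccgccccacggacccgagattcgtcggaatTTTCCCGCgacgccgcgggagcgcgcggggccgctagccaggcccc
FANCC, with more of these words in its window, had the smaller ratio of the pair. Both genes were picked by their words and calls, and a link between words and ratio was not tested.

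Homologous recombination had 3 of 9 expressed genes called higher (33.3%) and none lower, beside 24.9% and 9.74% of all expressed genes. Its median ratio was 0.56. XRCC3, which acts in repair by recombination, was at RPKM 10.2 and 62.9 (log2 ratio 2.56). XRCC2, which acts in the same process, was at 0.879 and 4.12 (1.74). It was under RPKM 1 in the low library and passed the expression minimum only through the high library. RAD54L, a DNA-dependent motor protein, was at 2.71 and 8.90 (1.55). RAD51C, the partner of XRCC3 in a complex, was not past the threshold. It was at 9.08 and 11.1 RPKM (0.27) in its highest row, NM_002876, a short transcript of 567 bases, and at 6.43 and 8.64 (0.40) in its longer row, NM_058216. XRCC3 was 1.12 times the level of RAD51C in the low library and 5.68 times in the high library. After GC correction their ratios were closer, 1.41 for XRCC3 and 0.58 for RAD51C.

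The mediators of homologous recombination were low in both libraries. BRCA1 was at RPKM 2.56 and 3.79 (log2 ratio 0.49) and its ubiquitin ligase partner BARD1 at 2.59 and 4.66 (0.74). PALB2, which bridges BRCA1 and BRCA2, was at 2.18 and 3.45 (0.56), and BRCA2, a recombination mediator, at 0.553 and 0.810, below the minimum. The partners BRCA1 and BARD1 stayed near parity, at 0.989 and 0.812 of each other. BLM, the helicase that dissolves joint molecules, had 3.07 and 4.11 RPKM (0.37), and RAD52, an annealing protein, had 2.15 and 2.55 (0.20). Every one of the 10 genes was higher in RPKM in the high library, but RAD51C and RAD52 went below 0 under at least 1 other scaling that sets the libraries against each other without the synthetic RNAs.

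Mismatch repair had 1 of 3 genes called higher (33.3%, beside 24.9% of all expressed genes). MSH6, the subunit that reads single mismatches, was at RPKM 9.31 and 23.5 (log2 ratio 1.29). MSH3, the alternative partner that reads larger loops, was at 1.82 and 2.04 (0.13), and under centring on the median gene or equal sums it fell below 0. The MSH6 level was 5.12 times that of MSH3 in the low library and 11.5 times in the high library. PMS2, the nuclease subunit, was at 6.51 and 8.19 (0.31), with pseudogene copies that could share its reads.

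End joining had 1 gene higher and 2 lower of 5 (20% and 40%, beside 24.9% and 9.74% of all expressed genes). PRKDC, the kinase recruited by Ku, was at RPKM 14.8 and 45.0 (log2 ratio 1.57). XRCC6, the Ku70 subunit, was at 31.8 and 57.2 (0.83), and XRCC5, the Ku80 subunit, at 40.5 and 54.4 (0.42). LIG4, the ligase that seals the ends, was at 5.03 in the low library and 1.80 in the high library, a ratio of −1.26. XRCC4, the protein that holds LIG4, was at 4.0 and 1.31, a ratio of −1.31. The kinase was thus called higher and the ligase pair lower, as shares of each library, with the Ku subunits between and XRCC5 at −0.22 under quantile normalization. After GC correction LIG4 was at −0.68 and XRCC4 at −0.73, and neither was past the threshold. The ligase partners kept their balance, since LIG4 was 1.26 times XRCC4 in the low library and 1.38 times in the high library. PRKDC stood 2.95 times above LIG4 in the low library and 25 times above it in the high library.

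LIG4 is shown as a lower gene without either set of words. Of its 5 promoter windows, none of which held them, the one farthest downstream is printed, chr13:108214783-108215032 on the minus strand.
LIG4: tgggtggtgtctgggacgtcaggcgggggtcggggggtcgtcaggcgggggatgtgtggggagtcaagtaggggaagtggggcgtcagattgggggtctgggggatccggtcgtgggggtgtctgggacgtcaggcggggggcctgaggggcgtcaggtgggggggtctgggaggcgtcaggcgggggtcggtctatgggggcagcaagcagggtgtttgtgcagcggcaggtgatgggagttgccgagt
No match says only that these letters are not in this window.

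Of 8 damage sensing and checkpoint genes, 1 was higher and 1 lower, or 12.5% each, beside 24.9% and 9.74% of all expressed genes. Their median ratio was 0.05. That was the lowest median of the 6 roles as deposited, whereas under quantile normalization end joining was lower, at −0.22 against −0.18. ATM, the kinase that senses double-strand breaks, was at RPKM 12.9 in the low library and 4.03 in the high library. Its log2 ratio was −1.57, the lowest of the 39 genes, and it went from rank 3464 to rank 7477. After GC correction ATM was at −0.98, not past the threshold. ATR, the kinase that senses single-stranded DNA at stalled forks, was at 3.16 and 4.30 (0.39). The ATM level was 4.09 times that of ATR in the low library and 0.937 of it in the high library. CHEK1, the effector of ATR, was at 1.20 and 4.44 RPKM (1.54), whereas CHEK2, the effector of ATM, was at 3.03 and 3.61 (0.22). CHEK1 went from 0.397 of the CHEK2 level to 1.23 times it. CHEK2 has near-identical copies that could take part of its reads. As deposited, ATR and CHEK1 were higher in the high library, with CHEK1 alone past the threshold and ATR at 0.05 with equal sums. ATM was lower, and CHEK2 was at the median of all genes, 0.22. Other checkpoint genes, described below, lay on both sides of 0, so these kinases do not stand for whole branches.

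MRE11A, RAD50 and NBN form the complex that brings ATM to a break. They were at RPKM 5.75 and 6.82, 10.5 and 9.66, and 7.84 and 7.19, with log2 ratios of 0.23, −0.11 and −0.12. TP53BP1, which protects broken ends, was at 9.92 and 8.35 (−0.24). RAD50 and NBN turned to 0.24 and 0.47 after the GC correction, so their direction depends on that correction.

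**Figure D2:**
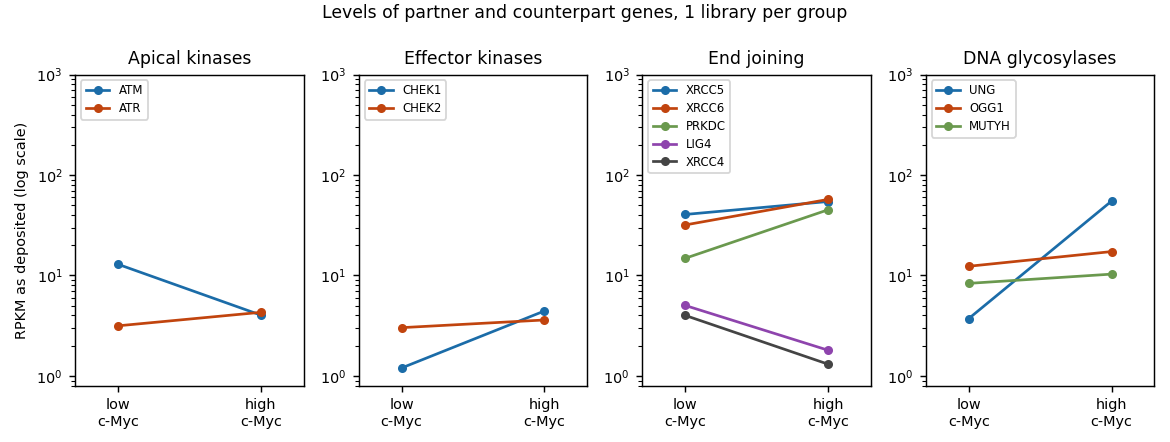
RPKM before (low c-Myc) and after release (high c-Myc), 1 library each, on a log axis. The panels hold the apical kinases, the effector kinases, the end joining genes and the DNA glycosylases of the set. The lines of ATM and ATR cross, as do those of CHEK1 and CHEK2 and those of UNG with OGG1 and MUTYH, while LIG4 and XRCC4 run down in parallel.

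The GC content of a transcript moved with the ratio. Over all expressed genes Spearman's rho between log2 ratio and GC content was 0.41 (9949 genes), and over the 39 repair genes 0.52; genes in 1 pair of libraries are not independent, and this is a description. The median ratio rose over 10 GC bins of all genes from −0.36 in the most AT-rich to 1.38 in the most GC-rich. The 13 higher repair genes had a median GC content of 50.5%, the 23 between 45.1%, and the 3 lower 36.7%. Taking the median of its bin from each gene's ratio and restoring the median of all genes gave 14 higher and 0 lower repair genes, against 21.9% higher and 8.72% lower among all genes, and the median of the set went to 0.75. LIG4, XRCC4 and ATM then stood at −0.68, −0.73 and −0.98, still below 0 and no longer past 2-fold. BARD1 was the gene that entered, at 1.33. XRCC3, at 62.7% GC, went from 2.56 to 1.41, whereas UNG stayed at 3.69.

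**Figure D3:**
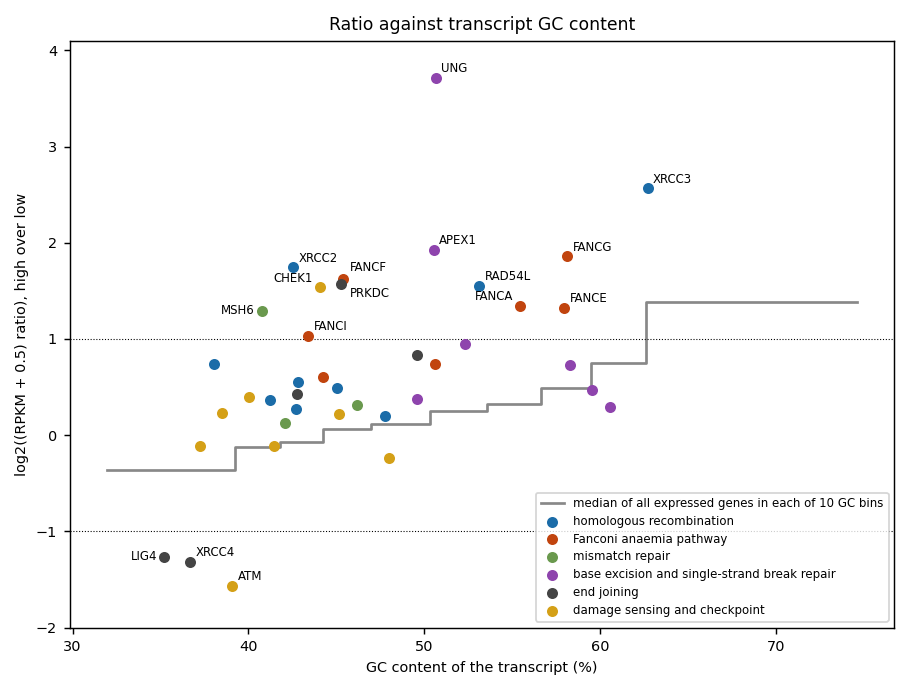
Log2 ratio of (RPKM + 0.5), high over low c-Myc, against the GC content of the transcript for the 39 expressed repair genes, coloured by role, with the median of all expressed genes in each of 10 GC bins as a grey step line and dotted lines at 2-fold. LIG4, XRCC4 and ATM lie among the most AT-rich genes, and UNG lies at 50.7% GC far above the line of its bin.

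**Figure D4:**
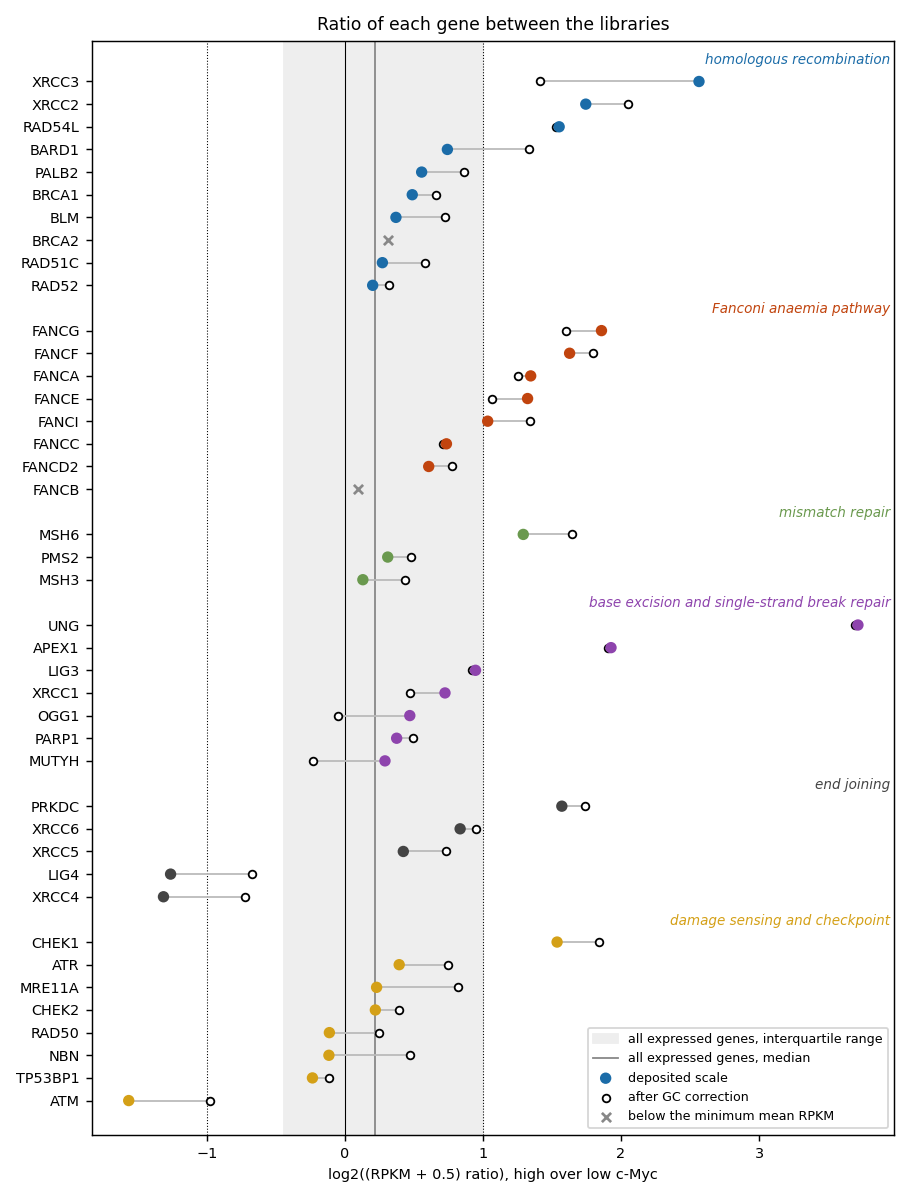
Log2 ratio of (RPKM + 0.5), high over low c-Myc, for each gene by role, as deposited (filled) and after GC correction (open), with crosses for the genes below the expression minimum; the grey band and line are the interquartile range and median of all expressed genes. All 7 Fanconi genes above the minimum lie right of the grey median line, and the 3 lower genes move toward it after the correction.

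Direction also depended on how the libraries were set against each other. As deposited, 33 of the 39 genes had a ratio above 0, beside 58.6% of all expressed genes. With the median of all expressed genes moved to 0 the count was 30, beside 50%. With quantile normalization it was 29, beside 46.3%, and with equal sums of RPKM without the synthetic RNAs 25, beside 44.9%. All 16 called genes kept their sign under every alternative tried on this scale, and 9 of them, all higher, kept their call: RAD54L, XRCC2, XRCC3, FANCF, FANCG, UNG, APEX1, PRKDC and CHEK1. XRCC2, FANCE, FANCF, CHEK1, LIG4 and XRCC4 fell below the stricter expression minimum, which gave them no value there. XRCC2 passed even the main minimum only through the high library. Of the 23 uncalled genes, 12 changed sign under at least 1 alternative, namely RAD51C, RAD52, MSH3, PMS2, OGG1, MUTYH, PARP1, XRCC5, CHEK2, MRE11A, RAD50 and NBN. By rank among expressed genes, 29 of the 39 stood higher in the high library, although 16 were in the upper 50% in each.

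The synthetic RNAs put the libraries on a per-cell scale. Of 92, the 46 with RPKM of at least 1 in both libraries had a median log2 ratio of −2.56 (interquartile range −2.84 to −2.17), so a cell of the high c-Myc population gave 5.88 times as much RNA for the same RPKM. On that scale 38 of the 39 genes were called higher and 0 lower, beside 97.1% and 0.0876% of all expressed genes. Their median was 3.11 against 2.78. Nearly the whole transcriptome was called higher, so the count says little of repair genes. UNG was at 86.9-fold, XRCC3 at 36.2-fold and XRCC2, from a low-library level under the minimum, at 27.6-fold in RPKM per cell. The genes that were lower as shares of the library were higher per cell, by 2.11-fold for LIG4, 1.93-fold for XRCC4 and 1.84-fold for ATM, below the 5.88-fold of a gene whose RPKM was equal in both. With the pseudocount ATM, at a log2 ratio of 0.99, was the 1 gene under the threshold. The pseudocount draws per-cell ratios of low genes toward 5.88-fold, so XRCC4 was called at 1.24 although its RPKM alone gave under 2-fold. In the authors' deposited renormalized column, LIG4 was at 2.33 and 3.90, XRCC4 at 1.84 and 2.85, and ATM at 6.01 and 8.66. With the pseudocount their log2 ratios in that column were 0.64, 0.51 and 0.49, all under the threshold. Ratios were smaller in that column for all expressed genes too, with a median of 2.25 against 2.78. There 36 of the 39 genes were called higher, and 0 lower, beside 90.0% and 0.175% of all expressed genes, and the median ratio of the 39 was 2.63.

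Transcript rows of the same gene gave nearly the same ratio. The 41 genes had 86 rows, and 21 genes had more than 1. In 19 of these the log2 ratios of the rows spanned less than 0.2, with a median span of 0.02. The exceptions were FANCC, whose short row NM_001243744 had −0.13 against 0.74 for the row used, and OGG1, from 0.16 to 0.47. A short FANCA row, NM_001018112, had 2.25 and 7.47 RPKM (1.54), close to the full-length 1.35.

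The remaining repair genes were taken from 8 lists, by role. Of 127 genes listed, 120 were in the tables and 109 were expressed, with a median ratio of 0.58. Of these, 32 were higher (29.4%) and 3 lower (2.75%), beside 24.9% and 9.74% of all expressed genes. After GC correction 41 were higher (39.0%) and 0 lower, beside 21.9% and 8.72%. With equal sums 22 were higher (20.2%) and 7 lower (6.42%), beside 16.9% and 17.7%. The counts by role that follow rest on few genes and have the same shares of all genes beside them. The lower genes GEN1, POLB and DCLRE1C, described with their roles, stood at −0.90, −0.78 and −0.96 after the GC correction. Other genes of homologous recombination had 8 of 22 higher and 1 lower. RECQL4, a helicase, was at RPKM 7.24 and 56.1 (log2 ratio 2.87), whereas GEN1, a resolvase, was at 19.5 and 6.64 (−1.49), and the helicase RECQL at 10.9 and 6.69 (−0.66). Other Fanconi genes had 4 of 10 higher and 0 lower. STRA13, a histone-fold partner of FANCM, had a ratio of 2.79 and C17orf70, a core complex subunit, 2.32, while FANCM itself was at 0.04 and WDR48, a cofactor of a deubiquitinase, at −0.55. Other mismatch repair genes had 1 of 5 higher and 0 lower.

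Other base excision genes had 5 of 15 higher and 1 lower (33.3% and 6.67%, beside 24.9% and 9.74% of all expressed genes). The glycosylase NTHL1, which removes oxidised pyrimidines, was at RPKM 5.75 and 87.2 (log2 ratio 3.81, or 2.66 after GC correction). FEN1, the flap nuclease, had 2.48. POLB, the gap-filling polymerase, was at 9.43 and 4.17 (−1.09), and the glycosylase MBD4 had −0.73. The ratios of the glycosylases thus ranged widely here, as in the set above. Other end joining genes had 0 of 4 higher and 1 lower, the nuclease DCLRE1C, at 11.0 and 4.74 RPKM (−1.13). NHEJ1, the factor that works with XRCC4, had 0.05, and the polymerases POLL and POLM had 0.41 and 0.53. DCLRE1C lay on the side of LIG4 and XRCC4.

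Other checkpoint genes had 8 of 20 higher (40%) and 0 lower, beside 24.9% and 9.74% of all expressed genes. With centring on the median gene, equal sums and quantile normalization, 4, 4 and 6 were higher (20%, 20% and 30%). The shares of all expressed genes were then 19.8%, 16.9% and 17.3%. After GC correction 9 of 19 were higher (47.4%), beside 21.9%. H2AFX, the histone variant phosphorylated at breaks, was at RPKM 8.12 and 113 (log2 ratio 3.72, or 2.57 after GC correction), and CDC25A, a phosphatase that CHEK1 acts on, was at 1.40 and 12.3 (2.75). HUS1, a subunit of the checkpoint clamp, had −0.44, and RAD17, its loader, −0.40. Nucleotide excision repair, which removes bulky lesions, had 3 of 18 higher and 0 lower and a median of 0.06. XAB2 (1.68) and ERCC2 (1.31) were its highest, and ERCC5 (−0.52) and DDB2 (−0.23) its lowest. Translesion synthesis and direct reversal had 3 of 15 higher and 0 lower, from ALKBH2, a demethylase, at 3.10 and 22.8 RPKM (2.70), and MAD2L2 (1.91) to the polymerases POLI (−0.74) and POLK (−0.92). For comparison, 26 of 36 expressed genes of replication licensing and the fork were higher and 0 lower, with a median of 1.52.

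Promoters were matched for 37 of the 41 genes, 56 windows in all, each from 250 bases before to 50 after the start; FANCI, PRKDC, NBN and XRCC5 had no entry. The E-box CACGTG was in 6 windows (10.7%), beside 7.26% of 35116 promoters, in APEX1, BRCA2, FANCC, LIG3, RAD50 and UNG. An E2F word was in 10 windows (17.9%), beside 3.31%, in FANCA, FANCC, FANCD2, MSH3, MSH6, PMS2, UNG, XRCC2 and XRCC6. Of its 12 matches, 2 shared bases with another of the motifs. The CCAAT box was in 30 windows (53.6%, beside 34.6%) and the GC box GGGCGG in 41 (73.2%, beside 45.0%). By call, E2F words were in 4 of 18 windows of higher genes, 6 of 28 of genes between, and 0 of 8 of the lower genes. The 8 windows of the lower genes belong to 3 genes. In the same order the E-box was in 2, 3 and 0 windows, the CCAAT box in 12, 13 and 5, and the GC box in 16, 21 and 3. Windows of 1 gene can overlap, so they are not independent.

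Some of these genes share their start region with a neighbour on the other strand, and the pairs were chosen after their values had been seen. Of 15 pairs with starts within 1000 bases and both genes expressed, PRKDC (1.57) faced MCM4, a subunit of the replicative helicase, at RPKM 14.0 and 101 (log2 ratio 2.81). PMS2 (0.31) faced AIMP2 (2.59), and MRE11A (0.23) faced ANKRD49 (−1.06). The lower genes faced neighbours that were not past the threshold: LIG4 faced ABHD13 (−0.84), XRCC4 faced TMEM167A (−0.08), and ATM faced NPAT (−0.18). Spearman's rho over the 15 pairs was 0.46, as a description.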

How the data were processed

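RPKM per RefSeq transcript and a second signal column, RPKM renormalized to the synthetic RNAs, were used as deposited by the authors, per the file headers. Reads were aligned with Bowtie to hg18, per the submitters' processing notes; not given in the sources used here are the version, the counter, the use of strand and the way of renormalizing. The library preparation marked strand, per the labels' protocols. With strand use unknown, reads of overlapping or antisense genes cannot be told apart.

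From these values, Python 3.11.15 (numpy 2.4.6, pandas 2.3.3, scipy 1.17.1) took each symbol's row with the highest mean RPKM, log2 ratios with a pseudocount of 0.5 for genes with mean RPKM of at least 1, and calls at 2-fold. For the per-cell ratio, the median over those synthetic RNAs that reached RPKM 1 in both libraries was subtracted. GENCODE release 29 transcripts gave lengths and GC content, and depth came from the steps of low values. With 1 library per group no test was made. All 41 genes are named, and of each other list the 2 highest and 2 lowest ratios; some of these are not reported here. The genes and lists were chosen with earlier results of these data known. The ratio, depth and GC steps were tested on simulated data. Alternatives changed the pseudocount, the minimum, the row, the scaling, the GC correction and the fold.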

Additional observations from a re-analysis of the deposited data

How the results depend on the processing

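With 1 library in each group, limits of precision beyond counting error cannot be seen. On the deposited scale the median log2 ratio of the expressed repair genes (0.56) was 0.63 with a pseudocount of 0.1 and 0.48 with 1, 0.49 with no expression minimum, 0.72 with a minimum of RPKM 5, 0.75 after GC correction, 0.33 when centred on the median gene, 0.23 with equal sums and 0.27 with quantile normalization. The 13 higher genes ranged from 9 to 14 over these settings, with shares of all genes given above for the scalings, and were 19 at 1.5-fold, beside 36.8% of all genes. The 3 lower genes were 1 with a minimum of RPKM 5, which removes LIG4 and XRCC4 from the genes considered, and 0 after GC correction; the cause was not tested for the second. FANCA and MSH6 lost their call with equal sums and quantile normalization, FANCE with equal sums, and FANCI with those, with centring and with a pseudocount of 1. Per cell, the median (3.11) was 3.19 and 3.04 with pseudocounts of 0.1 and 1, 3.04 with no minimum, 3.28 with a minimum of 5, 3.31 after GC correction, 2.63 in the authors' renormalized column, 3.05 with the synthetic RNAs at RPKM 10 or more and 3.15 with their summed RPKM. The 38 genes higher per cell were 22 of 23 with a minimum of 5, which leaves fewer genes, and 36 to 40 elsewhere. No paired analysis was possible because each group had 1 library.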
